A study of Mus musculus with 12 samples.

Results

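Transcription factor genes of the lung epithelium, 10 in all, were followed: *Sox2*, *Sox9*, *Foxa1*, *Foxa2*, *Id2*, *Etv5*, *Gata6*, *Elf5*, *Grhl2* and *Cebpa*. They were picked by gene symbol for their known roles in epithelial patterning and differentiation, and are 10 of the 52550 genes counted and 10 of the 15885 protein-coding genes tested. RNA was sequenced from 12 whole lungs of C57Bl/6J mouse pups at postnatal day 5, with 3 mice in each of 4 groups: WT (Adm+/+) given PBS, WT given LPS, Adm+/- given PBS and Adm+/- given LPS. LPS, an endotoxin from *E. coli* O55:B5, was injected intraperitoneally at 6 mg/kg once a day for 3 doses, PBS was the vehicle, and the lungs were collected 6 h after dose 3. Adm+/- mice carry 1 working copy of *Adm*, the gene of the vasodilator peptide adrenomedullin, in every cell of the body, and their line was backcrossed from 129/SvEv to C57BL/6J. The study asked how this loss alters the LPS response of the newborn lung, here taken as a model of bronchopulmonary dysplasia.

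In the embryo the lung epithelium grows as a branching tree. *Sox2* marks and patterns the conducting airway, whereas the distal tips, which give rise to alveolar cells, express *Sox9*, *Id2* and *Etv5* and are held in that state by FGF signalling. The forkhead factors *Foxa1* and *Foxa2*, the zinc finger factor *Gata6*, the ETS factor *Elf5*, the grainyhead factor *Grhl2* and the leucine zipper factor *Cebpa* act in epithelial identity and in the maturation of alveolar type II cells, which make surfactant. The lungs here were taken whole at postnatal day 5, so distal tip cells were not measured apart from other cells.

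Library depth lay between 22382535 and 38062873 assigned reads, with a median of 28494877. *Adm* was measured at 2.87 to 8.15 CPM (counts per gene scaled to a common library total) with overlap between genotypes, and its log2 difference, Adm+/- against WT, was -0.50 in PBS (adjusted p = 0.999) and -0.55 in LPS (adjusted p = 0.48) by edgeR. Some libraries stood apart. WT PBS replicate 5 and Adm+/- PBS replicate 6 gave 16.6% and 13.3% of their reads to 1 noncoding gene, *Gm26917*, against 5.42% to 7.40% in the other 10. In WT LPS replicates 9 and 11, 16 genes of squamous epithelium summed to 3556 and 1830 CPM, against 43.3 CPM in WT LPS replicate 10 and 8.83 to 54.9 CPM in the other 9 lungs. The 10 skeletal muscle genes summed to 876 to 2111 CPM in the WT LPS lungs and to no more than 55.7 CPM in any other lung, and both lists were written with these differences known. Markers of the epithelium were present throughout: 14 pan-epithelial genes, such as *Epcam* and *Krt8*, summed to 820 to 1123 CPM, and 12 genes of type II cells, such as *Sftpc*, to 14135 to 18410 CPM.

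The sequences next to the start of the genes that passed the test after LPS are shown first, since changes in RNA level are read against them. RefSeq (GRCm38.p6) promoter windows were matched for 7 of the 10 genes. Of the 5 genes called after LPS in either genotype, 4 had an entry (not *Sox9*), and for each the 250 bases before 1 start are printed 5′ to 3′ on the gene's strand, from the start with the fewest bases in exons of the gene and, among equals, the one farthest upstream. Capitals mark the 8-base C/EBP motif TTGCNNAA and the ETS motif CCGGAA.
Sox2 (chr3:34649745-34649994, plus strand): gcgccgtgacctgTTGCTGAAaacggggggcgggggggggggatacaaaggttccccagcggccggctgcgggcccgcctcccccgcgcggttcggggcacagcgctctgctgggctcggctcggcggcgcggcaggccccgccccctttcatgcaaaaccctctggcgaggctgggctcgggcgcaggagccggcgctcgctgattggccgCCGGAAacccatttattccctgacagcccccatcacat
Foxa2 (chr2:148046970-148047219, minus strand): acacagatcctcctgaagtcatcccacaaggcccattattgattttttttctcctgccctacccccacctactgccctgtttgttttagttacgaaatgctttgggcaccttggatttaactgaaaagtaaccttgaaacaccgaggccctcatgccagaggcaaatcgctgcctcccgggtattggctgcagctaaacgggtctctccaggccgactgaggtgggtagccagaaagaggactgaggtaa
Etv5 (chr16:22438369-22438618, minus strand): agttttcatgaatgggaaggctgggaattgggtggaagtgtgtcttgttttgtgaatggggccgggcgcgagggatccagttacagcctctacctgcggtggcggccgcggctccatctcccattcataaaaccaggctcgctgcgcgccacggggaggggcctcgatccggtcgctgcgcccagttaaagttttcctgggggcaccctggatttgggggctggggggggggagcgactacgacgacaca
Elf5 (chr2:103423818-103424067, plus strand): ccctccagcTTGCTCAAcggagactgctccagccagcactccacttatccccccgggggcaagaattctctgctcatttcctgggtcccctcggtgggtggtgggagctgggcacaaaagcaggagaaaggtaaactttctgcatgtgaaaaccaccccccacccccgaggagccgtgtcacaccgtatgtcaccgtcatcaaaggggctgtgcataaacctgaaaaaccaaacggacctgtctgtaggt
The *Sox2* window was the richest in GC of these, at 72% with 27 CG pairs, against medians of 52.4% and 6 over the 32851 mouse windows in the table. It held a C/EBP motif 237 to 230 bases before the start and an ETS motif 38 to 33 bases before it. That start lies upstream of the *Sox2* gene as counted, which begins at chr3:34650405. The start used for *Elf5* lies inside that gene's span. The *Elf5* window, 6 bases of which lie in an exon, held a C/EBP motif 241 to 234 bases before the start. The *Etv5* and *Foxa2* windows printed here held none of the 7 motifs searched on both strands, which were these and those of STAT (TTCNNNGAA), NF-kappa B, AP-1 (TGANTCA), forkhead (TGTTTNC) and glucocorticoid receptor factors. Over all windows the C/EBP letters occurred in 9.56%, the ETS letters in 12%, the forkhead letters in 17.8%, the STAT letters in 7.02%, the AP-1 letters in 6.75%, the NF-kappa B letters in 1.41% and the glucocorticoid receptor letters in 0.00913%. Other starts of these genes had windows with matches: a forkhead motif 183 to 177 bases before a second *Etv5* start, whose window overlaps exons of the gene by 149 bases, an ETS motif 207 to 202 bases before another *Foxa2* start, and a C/EBP motif 235 to 228 bases before another *Elf5* start. A match describes letters and is not evidence of binding.

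Levels of the 10 genes spanned an order of magnitude when compared per kilobase of exon. Over the 12 lungs the mean level was highest for *Cebpa*, at 44.6 CPM per kb, followed by *Etv5* at 30.6, *Id2* at 23.2, *Foxa2* at 12.1, *Gata6* at 12.1 and *Foxa1* at 8.64 CPM per kb. *Elf5* at 4.33, *Grhl2* at 3.62, *Sox2* at 3.37 and *Sox9* at 2.51 CPM per kb were the lowest. *Cebpa* led in each of the 4 groups by its mean, but its range overlapped that of *Etv5* in WT LPS and Adm+/- PBS lungs. In PBS lungs of both genotypes the order ran from *Cebpa* and *Etv5* to *Id2*, with ranges of *Etv5* above those of *Id2*. In Adm+/- LPS lungs the order of these neighbours was the other way, with *Id2* at 26.8 to 30.3 and *Etv5* at 14.6 to 20.2 CPM per kb and no overlap. The ranges of *Id2* and *Etv5* overlapped in WT LPS lungs. At the low end, *Sox9* was the lowest or overlapped the lowest in WT PBS, WT LPS and Adm+/- PBS lungs, whereas in Adm+/- LPS lungs *Sox9*, *Sox2*, *Grhl2* and *Elf5* followed each other at means of 3.96, 3.44, 3.42 and 3.29 CPM per kb, each overlapping the next. *Grhl2* varied least over the 12 lungs, with its highest CPM 1.38 times its lowest, and *Sox2* varied most, at 5.27 times.

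**Figure D1:**
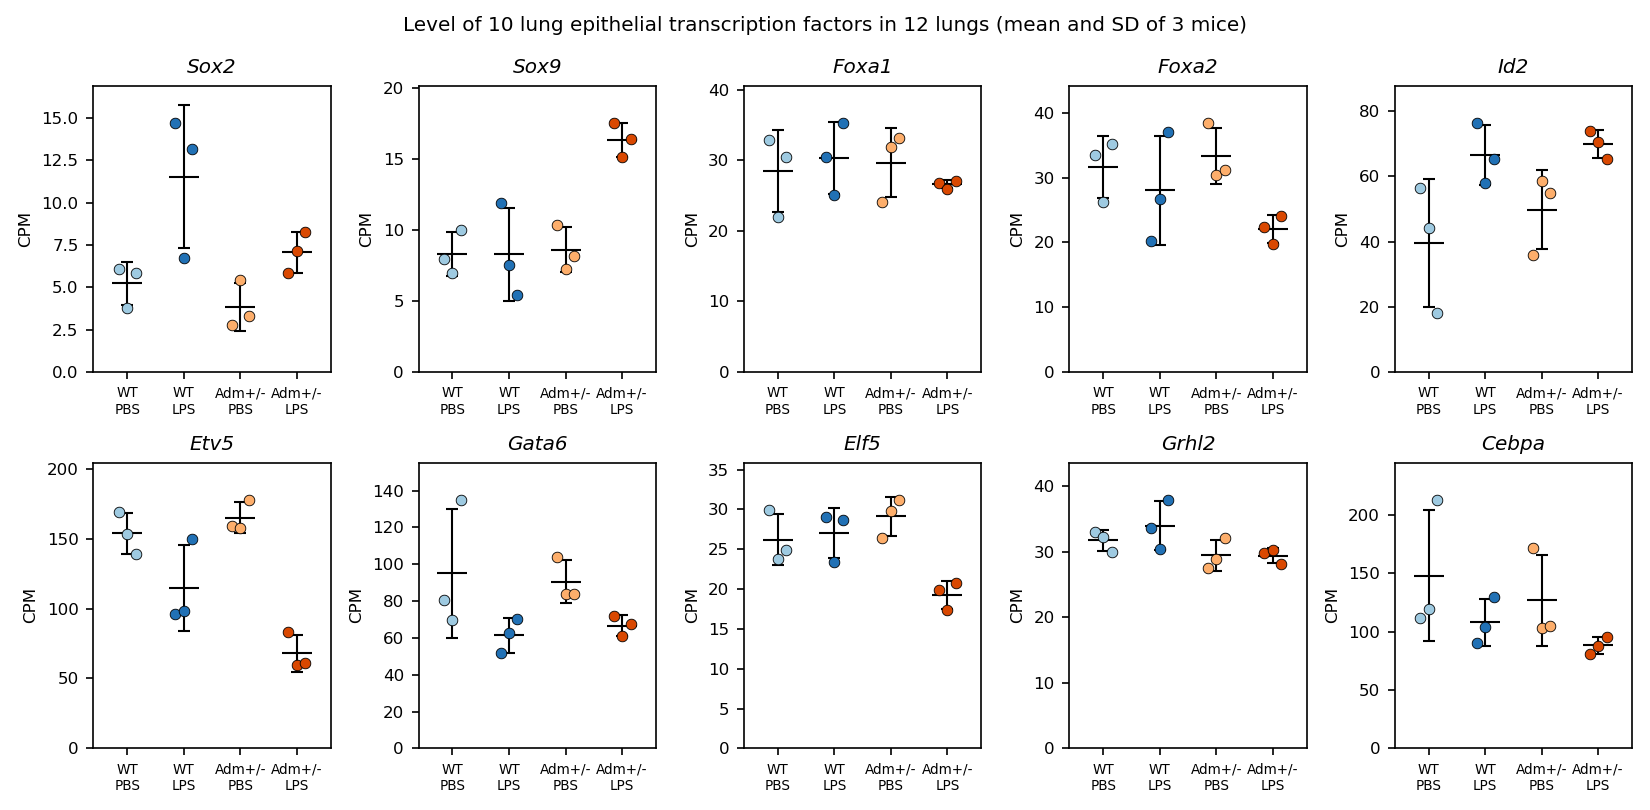
Level of each gene in CPM (linear axis from 0) in the 12 lungs, 1 panel a gene and 1 point a mouse, with horizontal lines at the mean and bars of 1 SD over 3 mice. In Adm+/- LPS lungs the 3 *Sox9* points lie above all the others, and the 3 *Etv5* and 3 *Elf5* points lie below all the others.

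After LPS, 1 of the 10 genes was called in WT mice and 4 in Adm+/- mice. A gene was called at an adjusted p below 0.05 in edgeR's quasi-likelihood test with an absolute log2 fold change above 0.5. In WT mice *Sox2* rose, which is 1 call against 17.6% of all tested genes called in this comparison. In Adm+/- mice *Sox9* rose and *Etv5*, *Elf5* and *Foxa2* fell, which is 4 calls against 25% of all tested genes. By direction, 3 of the 10 genes fell in Adm+/- mice against 12.2% of tested genes, and 1 rose against 12.8%. In WT mice 1 rose against 10.5% of tested genes and 0 fell against 7.09%. At an unadjusted p below 0.05 there were 4 of the 10 genes in WT mice, against 36.7% of tested genes, and 5 in Adm+/- mice, against 41.8%. The median log2 fold change of the 10 genes was 0.02 in WT mice, beside 0.01 over all tested genes, and -0.30 in Adm+/- mice, beside -0.01. In whole lung RNA, fewer cells of a type and less RNA per cell cannot be told apart. Of the 10 genes, *Etv5* in Adm+/- mice had the largest log2 fold change in size.

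**Figure D2:**
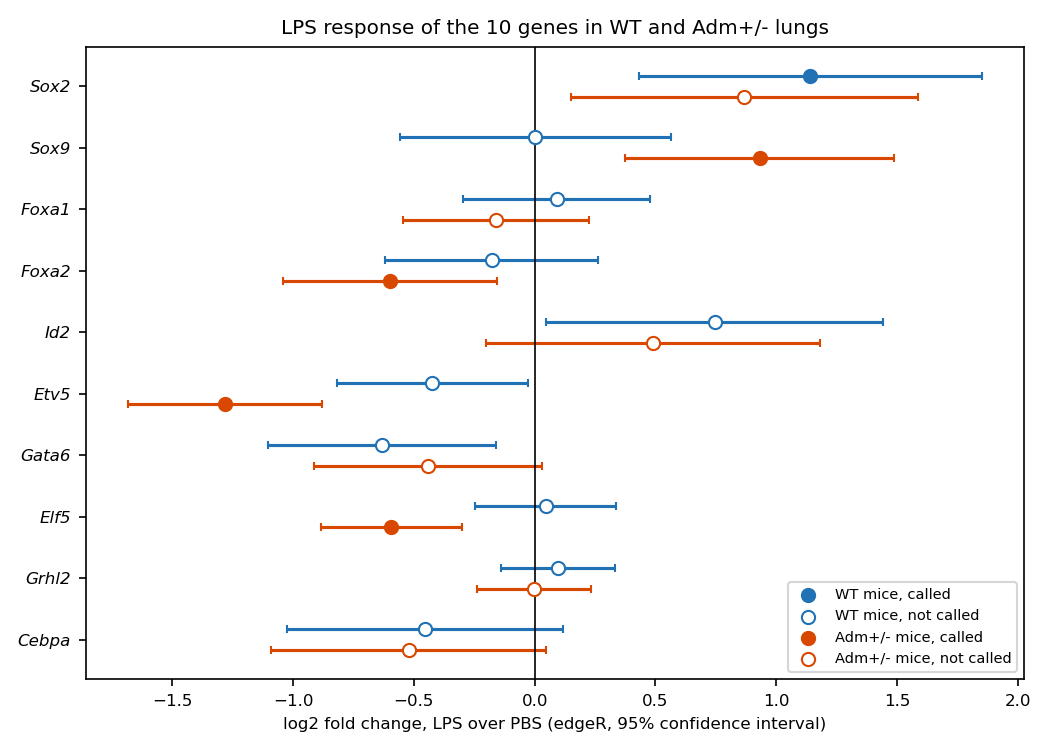
Log2 fold change of each gene, LPS over PBS, in WT mice (blue) and Adm+/- mice (orange), with 95% confidence intervals from edgeR (n = 3 mice a group); filled points were called. *Etv5* in Adm+/- mice, at -1.28, lies farthest from 0.

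*Etv5*, an ETS factor downstream of FGF signalling in the distal tip and in type II cells, lies on the minus strand at chr16:22381309-22439719 (mm10) and was counted over 15 exon blocks. Its level was 168.8, 153.1 and 139.4 CPM in WT PBS lungs and 96.00, 98.1 and 150.1 CPM in WT LPS lungs. It was 159.4, 158.0 and 177.9 CPM in Adm+/- PBS lungs and 83.1, 59.8 and 60.9 CPM in Adm+/- LPS lungs. All 3 Adm+/- LPS lungs were thus below all 9 others, whereas WT LPS replicate 11 lay within the range of the WT PBS lungs. In Adm+/- mice *Etv5* fell by 58.9% with LPS (log2 fold change -1.28, 95% confidence interval -1.68 to -0.88, edgeR adjusted p = 0.000447). In WT mice the log2 fold change was -0.42 (-0.82 to -0.03, edgeR adjusted p = 0.113), and without WT LPS replicate 11 it was -0.67 and called (edgeR adjusted p = 0.0145). The call in Adm+/- mice held in each of the 12 fits that left out 1 library. The promoter window printed for *Etv5* lies before a start inside the gene's span.

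*Elf5*, an ETS factor of distal tips and alveolar progenitors, lies on the plus strand at chr2:103411688-103450989. Its level was 29.9, 23.8 and 24.96 CPM in WT PBS lungs and 29.03, 23.5 and 28.7 CPM in WT LPS lungs. In Adm+/- lungs it was 26.4, 29.8 and 31.2 CPM with PBS and 19.9, 17.3 and 20.7 CPM with LPS. The WT groups overlapped, and the Adm+/- LPS lungs were the lowest 3 of the 12. *Elf5* fell by 33.7% in Adm+/- mice (log2 fold change -0.59, -0.88 to -0.30, edgeR adjusted p = 0.00624), a call that held in each of the 12 fits without 1 library. For WT mice the log2 fold change of *Elf5* was 0.05 (-0.24 to 0.34, edgeR adjusted p = 0.828).

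*Sox9*, a factor of the distal tip that is also expressed in cartilage, lies on the plus strand at chr11:112782224-112787760. It was measured at 7.96, 6.99 and 10.01 CPM in WT PBS lungs and at 11.9, 7.53 and 5.46 CPM in WT LPS lungs. It was measured at 10.4, 7.26 and 8.19 CPM in Adm+/- PBS lungs and at 17.5, 15.2 and 16.4 CPM in Adm+/- LPS lungs. The Adm+/- LPS lungs were above all 9 others, and the WT LPS lungs spread on both sides of the WT PBS lungs. *Sox9* rose 1.91-fold with LPS in Adm+/- mice (log2 fold change 0.93, 0.38 to 1.49, edgeR adjusted p = 0.0169), while in WT mice the log2 fold change was 0.003 (-0.56 to 0.56, edgeR adjusted p = 0.994). The call in Adm+/- mice was lost without Adm+/- PBS replicate 7, Adm+/- PBS replicate 8 or Adm+/- LPS replicate 1, with log2 fold changes over all 12 such fits of 0.82 to 1.08. None of the 9 tested cartilage genes was called in Adm+/- mice, against 25% of tested genes. The list summed to 35.6 to 54.8 CPM in Adm+/- PBS and 21.1 to 51.6 CPM in Adm+/- LPS lungs. The part of cartilage in the *Sox9* level was not tested.

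*Foxa2*, a forkhead factor needed for alveolar maturation, lies on the minus strand at chr2:148042877-148046969. Its level was 33.5, 26.3 and 35.2 CPM in WT PBS and 20.2, 26.8 and 37.04 CPM in WT LPS lungs. In Adm+/- mice it was 38.4, 30.5 and 31.3 CPM with PBS and 22.4, 19.7 and 24.1 CPM with LPS. The Adm+/- groups did not overlap and the WT groups did. *Foxa2* fell by 33.9% in Adm+/- mice (log2 fold change -0.60, -1.04 to -0.16, edgeR adjusted p = 0.043). This call was the least stable of the 4: it held in 4 of the 12 fits without 1 library, being lost without any single Adm+/- lung, WT PBS replicate 3 or WT LPS replicate 10, and without WT PBS replicate 5 and Adm+/- PBS replicate 6 together the log2 fold change was -0.48 (edgeR adjusted p = 0.11). In WT mice the log2 fold change was -0.18 (edgeR adjusted p = 0.55). *Foxa1*, its close relative on the minus strand at chr12:57540628-57546916, was measured at 21.9 to 35.2 CPM over the 12 lungs. Its groups overlapped in both LPS comparisons, with log2 fold changes of 0.09 in WT mice (-0.30 to 0.48, edgeR adjusted p = 0.735) and -0.16 in Adm+/- mice (-0.55 to 0.23, edgeR adjusted p = 0.528).

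*Sox2*, the factor of the conducting airway, which is also known from the esophagus and other stratified epithelia, is a gene of 1 exon at chr3:34650405-34652461 on the plus strand. It lies within the span of the noncoding gene *Sox2ot* on the same strand, without shared exon bases. Its level was 6.06, 3.79 and 5.87 CPM in WT PBS lungs and 14.7, 6.74 and 13.2 CPM in WT LPS lungs. It was 2.79, 5.44 and 3.30 CPM in Adm+/- PBS lungs and 5.83, 7.12 and 8.27 CPM in Adm+/- LPS lungs. In both genotypes every LPS lung was above every PBS lung. *Sox2* rose 2.21-fold in WT mice (log2 fold change 1.14, 0.43 to 1.85, edgeR adjusted p = 0.029), but was not called with only the 6 WT libraries compared (edgeR adjusted p = 0.0816). For Adm+/- mice the log2 fold change was 0.87 (0.15 to 1.59, edgeR adjusted p = 0.0643), called without WT LPS replicate 10 or Adm+/- PBS replicate 7, by DESeq2, and by edgeR with only the 6 Adm+/- libraries (adjusted p = 0.026).

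The 2 highest *Sox2* levels belonged to WT LPS replicates 9 and 11, the same lungs that held 3556 and 1830 CPM of squamous epithelium genes. The squamous list, led in these lungs by the keratins *Krt4* and *Krt13*, had 11 of its 12 tested genes called higher in WT mice and 0 called in Adm+/- mice, and all 16 were above 0 in some WT LPS lung, whereas 4 were at 0 in every WT PBS lung. Without these 2 lungs the log2 fold change of *Sox2* in WT mice was 0.36 (edgeR adjusted p = 0.692), an alternative chosen after the data were seen that leaves 1 WT LPS lung, assumed to vary like the other groups. The call was also lost without WT LPS replicate 9, WT LPS replicate 11 or WT PBS replicate 4 alone, with log2 fold changes of 0.92 to 1.41 over the 12 fits. The part of squamous epithelium in the *Sox2* level was not tested further. In Adm+/- LPS lungs, where the squamous list summed to 14.2 to 54.9 CPM, the lung with the lowest sum had the highest *Sox2* level. Of 8 airway secretory genes, 1 was called higher in WT mice and 0 in Adm+/- mice, but their summed level was higher with LPS without overlap in both genotypes, at 1624 to 2634 CPM in WT PBS, 2665 to 3251 CPM in WT LPS, 1437 to 2354 CPM in Adm+/- PBS and 2729 to 3324 CPM in Adm+/- LPS lungs. Of 8 ciliated cell genes, 0 were called higher in WT and 1 in Adm+/- mice, and their sum was higher without overlap in Adm+/- mice (87.7 to 117 CPM with PBS and 138 to 175 CPM with LPS) and overlapped in WT mice. The part of these airway cells in the *Sox2* level was not tested. The only other gene of the 10 with both WT LPS replicates 9 and 11 at the top was *Grhl2*, by a small margin.

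**Figure D3:**
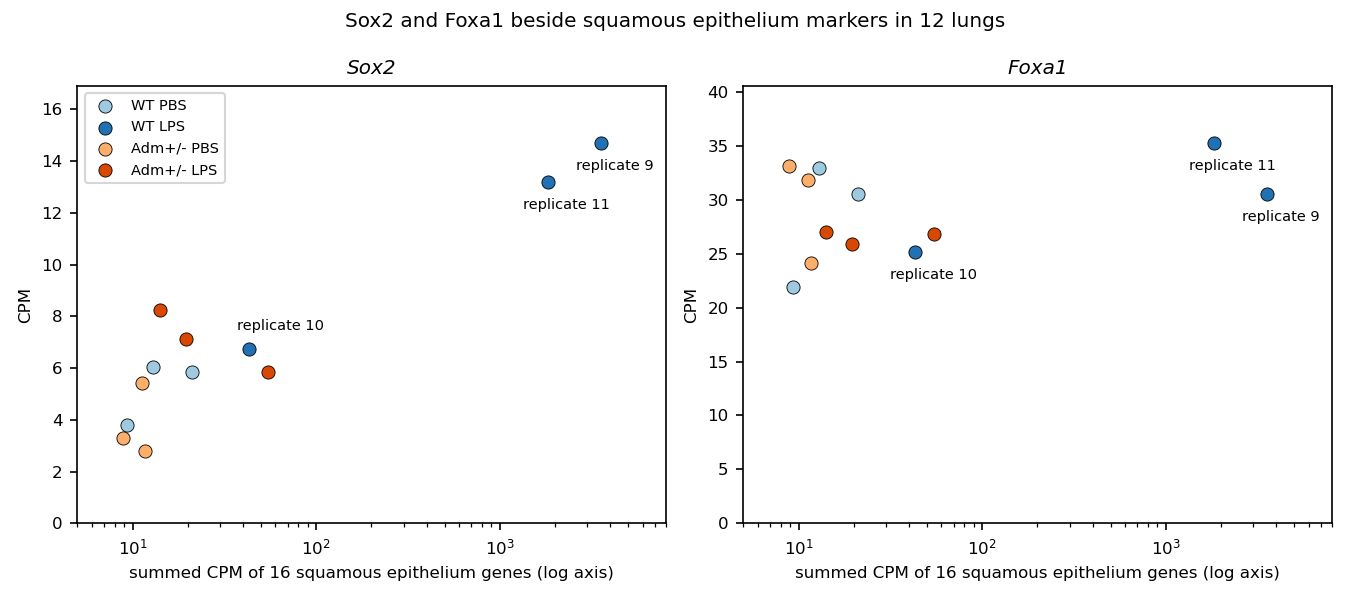
Level of *Sox2* (left) and *Foxa1* (right) in CPM against the summed CPM of 16 squamous epithelium genes (log axis), 1 point a lung, coloured by group, with WT LPS replicates labelled. WT LPS replicates 9 and 11 stand apart on the x axis and hold the 2 highest *Sox2* levels, while their *Foxa1* levels lie among or just above those of the other lungs.

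*Id2*, an inhibitor of basic helix-loop-helix factors that marks distal tips and is also expressed in lymphoid and myeloid cells, lies on the minus strand at chr12:25093799-25097140. Its level was 56.6, 44.02 and 18.2 CPM in WT PBS lungs and 76.3, 57.9 and 65.4 CPM in WT LPS lungs. With Adm+/- it was 35.9, 58.5 and 54.9 CPM in PBS and 73.97, 70.5 and 65.5 CPM in LPS lungs. Every LPS lung was above the PBS lungs of its genotype, but neither difference was called, with log2 fold changes of 0.74 in WT mice (0.05 to 1.44, edgeR adjusted p = 0.114) and 0.49 in Adm+/- mice (-0.20 to 1.18, edgeR adjusted p = 0.268). The 2 lowest levels came from WT PBS replicate 5 and Adm+/- PBS replicate 6, the lungs with the high *Gm26917* share. Without this pair the log2 fold change in WT mice was 0.40, without Adm+/- PBS replicate 6 alone that in Adm+/- mice was 0.29, and without WT PBS replicate 3 that in WT mice was 1.09 and called (edgeR adjusted p = 0.0366). Markers of monocytes and macrophages rose alongside, with 8 of 11 called higher in each genotype and 1 called lower in Adm+/- mice (*Cx3cr1*), and so did neutrophil markers, with 8 of 9 in WT and 9 of 9 in Adm+/- mice. Of 9 markers of NK and T cells, 2 were called higher in WT and 3 in Adm+/- mice, and their summed level went from 6.73 to 8.82 CPM in WT PBS to 10.2 to 12.9 CPM in WT LPS lungs and from 6.08 to 8.26 CPM in Adm+/- PBS to 9.42 to 14.8 CPM in Adm+/- LPS lungs. The part of these cells in the levels of *Id2* and of *Cebpa*, which myeloid cells also express, was not tested.

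*Gata6*, a zinc finger factor of epithelial maturation that is also expressed in smooth muscle and some macrophages, lies on chromosome 18 and was measured at 80.7, 69.7 and 135.0 CPM in WT PBS and 51.5, 62.5 and 70.1 CPM in WT LPS lungs. In Adm+/- lungs it was 104.1, 83.8 and 83.8 CPM with PBS and 71.8, 60.8 and 67.6 CPM with LPS. The WT groups overlapped by a narrow margin and the Adm+/- groups did not. Neither difference was called (WT log2 fold change -0.63, -1.10 to -0.16, edgeR adjusted p = 0.0574; Adm+/- -0.44, -0.91 to 0.03, edgeR adjusted p = 0.145). *Cebpa*, a factor of type II cell maturation that is a gene of 1 exon on the plus strand at chr7:35119293-35121928, was measured at 111.3, 119.7 and 212.8 CPM in WT PBS and 90.3, 103.9 and 129.5 CPM in WT LPS lungs. It was measured at 171.9, 103.1 and 104.8 CPM in Adm+/- PBS and 81.1, 87.9 and 95.3 CPM in Adm+/- LPS lungs. As with *Gata6*, the WT groups overlapped and the Adm+/- groups did not, and neither difference was called (WT log2 fold change -0.45, -1.02 to 0.12, edgeR adjusted p = 0.228; Adm+/- -0.52, -1.09 to 0.05, edgeR adjusted p = 0.152).

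*Gata6* in WT mice was called lower by DESeq2 and, by edgeR, without WT PBS replicate 3 or WT PBS replicate 4. For *Gata6* and for *Cebpa* the 2 highest levels of the 12 were those of WT PBS replicate 5 and Adm+/- PBS replicate 6. Without this pair the log2 fold changes with LPS were -0.30 for *Gata6* and -0.10 for *Cebpa* in WT mice, and -0.24 for *Cebpa* in Adm+/- mice. Of 8 smooth muscle genes, 0 were called higher and 1 lower in WT mice, and 0 higher and 2 lower in Adm+/- mice. Their summed level was 1942 to 2511 CPM in WT PBS, 1432 to 2096 CPM in WT LPS, 1932 to 2301 CPM in Adm+/- PBS and 1369 to 1640 CPM in Adm+/- LPS lungs, lower without overlap in the Adm+/- mice, and the part of smooth muscle in the *Gata6* level was not tested. *Gata6* and *Cebpa* share 93 and 51 exon bases with genes on the opposite strand, *1010001N08Rik* and *Gm45091*, and the strand setting of the counting is not given in the sources used here.

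*Grhl2*, which maintains epithelial junction genes and lies on the plus strand at chr15:37233036-37363569, was measured at 33.01, 32.3 and 29.96 CPM in WT PBS lungs and 33.7, 30.4 and 37.95 CPM in WT LPS lungs. It was measured at 27.5, 28.96 and 32.05 CPM in Adm+/- PBS and 29.8, 30.3 and 28.1 CPM in Adm+/- LPS lungs. Groups overlapped in both comparisons. Its 95% confidence intervals for the log2 fold change with LPS, -0.14 to 0.33 in WT and -0.24 to 0.23 in Adm+/- mice, were the narrowest of the 10 genes. *Grhl2* shares 169 exon bases with the antisense gene *Gm16136*.

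Counted by ranges, LPS and PBS lungs did not overlap for 2 of the 10 genes in WT mice (*Sox2* and *Id2*, both higher), against 36.2% of tested genes. In Adm+/- mice 8 of the 10 did not overlap, 3 of them higher with LPS (*Sox2*, *Sox9*, *Id2*) and 5 lower (*Foxa2*, *Etv5*, *Gata6*, *Elf5*, *Cebpa*), against 53.7% of tested genes.

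The levels were next set against genes of the epithelium. The mean log2 CPM of the 14 pan-epithelial genes was higher with LPS by 0.20 in WT and by 0.21 in Adm+/- mice, and without overlap in the latter. In WT LPS lungs this mean was 5.93 and 5.86 in replicates 9 and 11, which held the squamous genes, and 5.66 in replicate 10. The part of squamous epithelium in this mean was not tested. Relative to this mean, *Etv5* was lower in Adm+/- LPS than in Adm+/- PBS lungs (log2 difference -1.51), and *Foxa2* (-0.80), *Elf5* (-0.80), *Cebpa* (-0.69) and *Gata6* (-0.65) were also lower, all without overlap. *Sox9* was higher by 0.73 without overlap, and *Sox2* (0.70) and *Id2* (0.31) overlapped. These are 5 lower and 1 higher of 10 genes, against 41.5% and 14.9% of tested genes scaled in the same way. In WT mice *Sox2* (0.88) was higher and *Gata6* (-0.78) and *Cebpa* (-0.60) were lower without overlap, against 8.9% of tested genes higher and 26.1% lower. Of the 12 type II genes, 1 was called higher and 0 lower in WT mice, against 10.5% and 7.09% of tested genes, and 4 were called higher and 1 lower in Adm+/- mice, against 12.8% and 12.2%. Their mean log2 CPM was higher with LPS without overlap, by 0.22 in WT and 0.41 in Adm+/- mice. Relative to it, *Foxa1* (-0.56) and *Grhl2* (-0.41) were also lower without overlap in Adm+/- mice. In WT mice *Etv5* (-0.67) and *Gata6* (-0.80) were lower without overlap on this scale, and *Sox2* and *Cebpa* overlapped. The share of tested genes on this scale was not computed.

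**Figure D4:**
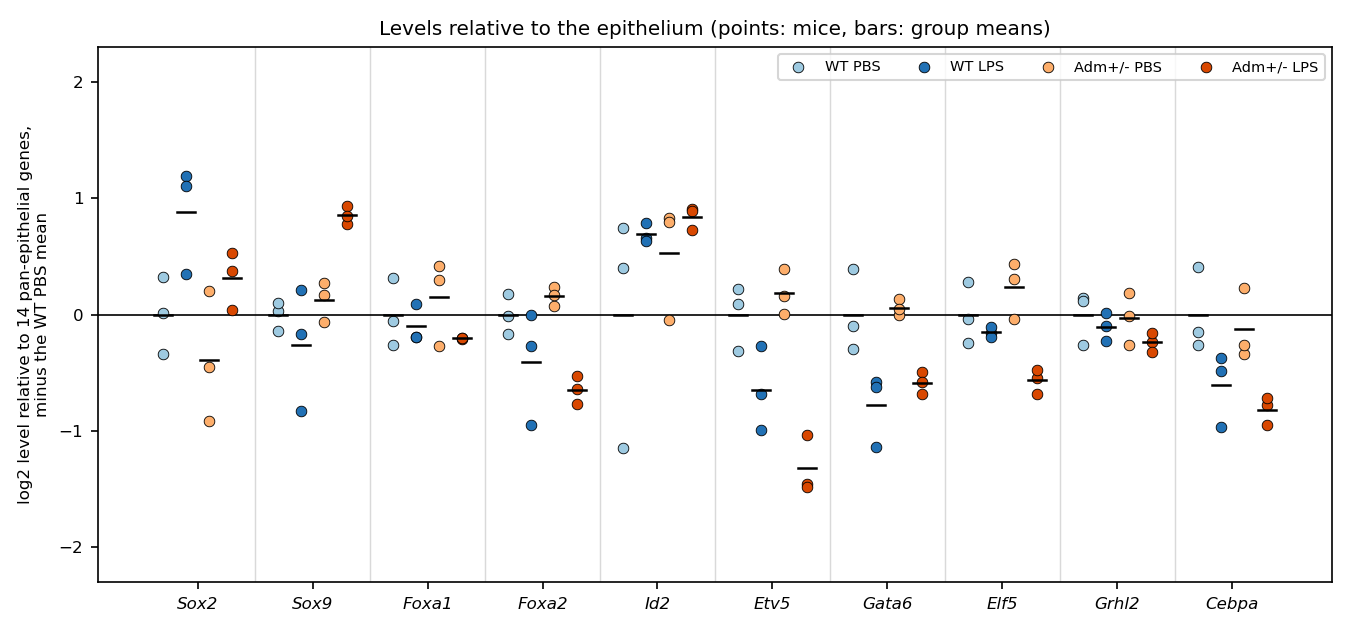
Log2 level of each gene minus the mean log2 level of 14 pan-epithelial genes in the same lung, set to 0 at the mean of the WT PBS lungs, with 1 point a mouse and bars at the group means. *Etv5*, *Foxa2*, *Elf5*, *Gata6* and *Cebpa* lie lower in Adm+/- LPS than in Adm+/- PBS lungs, and *Sox9* lies higher.

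The difference between the LPS responses of the genotypes was tested directly. None of the 10 genes was called by edgeR, against 0.145% of tested genes, and DESeq2 and limma-voom called none of the 10 either. At an unadjusted p below 0.05 there were 3, against 7.85% of tested genes. These were *Etv5*, whose log2 response was lower in Adm+/- than in WT mice (difference -0.86, -1.42 to -0.30, edgeR adjusted p = 0.401), *Elf5*, also lower (-0.64, -1.05 to -0.23, edgeR adjusted p = 0.4), and *Sox9*, which was higher (0.93, 0.14 to 1.72, edgeR adjusted p = 0.52). The intervals of the other 7 genes held 0, such as *Sox2* at -0.27 (-1.28 to 0.73) and *Foxa2* at -0.42 (-1.04 to 0.20). For *Etv5*, *Elf5*, *Sox9* and *Foxa2*, a call in Adm+/- mice alone is therefore not shown to be a difference between genotypes at this number of mice.

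In PBS lungs none of the 10 genes differed between genotypes by edgeR, DESeq2 or limma-voom, and 0 of all tested genes were called, which is 0%. None of the 10 had an unadjusted p below 0.05, against 2.17% of tested genes, and all 10 overlapped, against 4.99% of tested genes without overlap (2.47% higher and 2.51% lower). The largest differences in size were those of *Sox2* (-0.43, -1.16 to 0.29) and *Id2* (0.33, -0.37 to 1.02).

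In LPS lungs edgeR called none of the 10 genes between genotypes, against 2.05% of tested genes, while 4 had an unadjusted p below 0.05, against 14.3%. *Sox9* was higher in each Adm+/- LPS lung than in any WT LPS lung, with a log2 difference of 0.98 (0.42 to 1.53, edgeR adjusted p = 0.0739). *Etv5* was lower in each Adm+/- LPS lung (-0.76, -1.15 to -0.36, edgeR adjusted p = 0.0572), and so was *Elf5* (-0.49, -0.78 to -0.20, edgeR adjusted p = 0.0869). *Grhl2* was also without overlap and lower, at -0.21 (edgeR adjusted p = 0.434), so that 4 of the 10 genes did not overlap, against 24.6% of tested genes. DESeq2 called 2 of the 10, *Sox9* and *Etv5*, and gave *Elf5* an adjusted p of 0.0181 at a log2 difference of -0.48, under the fold threshold. By edgeR both were also called without WT PBS replicate 5 or WT LPS replicate 9, and *Etv5* without WT LPS replicate 10. Of the 12 fits without 1 library, 2 called *Sox9* (0.75 to 1.34) and 3 called *Etv5* (-0.93 to -0.51). *Elf5* was called in 0 of them (-0.58 to -0.41). The smallest differences of *Sox9* and *Etv5* came without WT LPS replicate 11. *Sox2* overlapped between the genotypes (-0.71, edgeR adjusted p = 0.337), and without WT LPS replicates 9 and 11 its difference was 0.07. Relative to the pan-epithelial mean, *Sox9* was higher by 1.11, and *Etv5* (-0.67), *Elf5* (-0.41) and *Foxa1* (-0.11) were lower without overlap, against 12.4% of tested genes higher and 8.01% lower. For *Foxa1* the groups nearly met, at -1.004 in Adm+/- LPS replicate 12 and -1.003 in WT LPS replicate 10, and its unscaled levels overlapped.

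The other genes of these pathways were taken as lists. Of 8 genes of distal tip signalling, 0 rose and 2 fell in WT mice, and 0 rose and 4 fell in Adm+/- mice, with list medians of -0.34 and -0.51 on the log2 scale beside 0.01 and -0.01 over all tested genes. Over all tested genes 10.5% rose and 7.09% fell in WT mice, and 12.8% rose and 12.2% fell in Adm+/- mice. *Fgf10*, the mesenchymal ligand that drives branching, fell in both, with log2 fold changes of -0.66 in WT (edgeR adjusted p = 0.0328) and -1.54 in Adm+/- mice (edgeR adjusted p = 0.000239). *Bmp4*, a ligand made in the distal tip and mesenchyme, fell in both as well (-0.67 and -0.75). *Shh*, an epithelial ligand that acts on the mesenchyme, fell in Adm+/- mice (-0.97), as did the Wnt ligand *Wnt7b* (-0.67). Neither was called in WT mice, where means with PBS and LPS were 34.4 and 21.8 CPM for *Shh* and 17.5 and 14.5 CPM for *Wnt7b*. The FGF receptor gene *Fgfr2* and the FGF response genes *Spry2*, *Spry4* and *Dusp6* were not called with LPS in either genotype. *Spry4* was called higher in Adm+/- than in WT lungs given LPS (log2 difference 0.75, edgeR adjusted p = 0.0218), the 1 call between genotypes in this list, which is named here after its values were seen.

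Of 27 other transcription factors of the lung epithelium, 4 rose and 3 fell in WT mice, and 2 rose and 4 fell in Adm+/- mice, with list medians of -0.01 and 0.11, counts that are near the shares over all tested genes given for the distal tip list. *Nkx2-1*, the factor that defines lung epithelium, was measured at group means of 153 to 170 CPM, with log2 fold changes of -0.10 in WT (edgeR adjusted p = 0.568) and -0.09 in Adm+/- mice (edgeR adjusted p = 0.608). *Mycn*, a growth-promoting factor of the distal tip, fell in both genotypes (-1.80 and -1.61), and so did *Sox4* (-1.53 and -1.42). For both genes the highest PBS level of each genotype was that of WT PBS replicate 5 or Adm+/- PBS replicate 6, the lungs with the high *Gm26917* share. *Mycn* was at 40.7 and 37.4 CPM in this pair and at 13.4 to 23.0 CPM in the other 4 PBS lungs, and *Sox4* was at 595 and 435 CPM against 222 to 287 CPM, all above every LPS lung. *Klf5*, a regulator of type I and type II cell fate, rose in WT mice (0.79) and was called higher in Adm+/- mice as well. *Irx1* rose in both genotypes, with log2 fold changes of 0.69 in WT and 1.59 in Adm+/- mice, and *Rfx2*, a factor of ciliated cells, fell in both (-0.58 and -1.04). *Trp63*, which defines basal cells of airway and squamous epithelia, rose in WT mice (5.57, edgeR adjusted p = 0.00338), with 28.8, 1.04 and 13.5 CPM in WT LPS replicates 9, 10 and 11 against 0.19 to 0.35 CPM in WT PBS lungs. Its 2 high lungs were again those with the squamous genes. *Trp63* was also the 1 gene of this list called between genotypes with LPS, lower in Adm+/- lungs (log2 difference -4.20, edgeR adjusted p = 0.0336). Over all tested genes 1.72% were called lower in that comparison.

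Paralogs of the 10 factors were counted in the same way. Of 19 tested paralogs, 8 rose and 1 fell in WT mice, and 7 rose and 4 fell in Adm+/- mice, with list medians of 0.48 and -0.21, to be read against the same shares. *Ehf*, an epithelial ETS factor related to *Elf5*, rose in both genotypes, from 11.9 to 55.1 CPM in WT (log2 fold change 2.21, edgeR adjusted p = 0.00132) and from 10.2 to 56.4 CPM in Adm+/- mice (2.46, edgeR adjusted p = 0.000362). *Etv4*, the closest relative of *Etv5* and a partner in FGF signalling, fell in WT mice from 15.5 to 5.81 CPM (-1.42, edgeR adjusted p = 0.00723) and was called lower in Adm+/- mice. Among the C/EBP factors, *Cebpd*, an inflammatory response gene, rose from 31.0 to 336 CPM in Adm+/- mice (3.44, edgeR adjusted p = 0.00113) and *Cebpb* rose there from 140 to 287 CPM (1.03), with log2 fold changes of 1.36 and 0.48 in WT mice that were not called (edgeR adjusted p = 0.0893 and 0.12). *Cebpe*, a factor of granulocytes, rose in both genotypes (2.74 in WT and 1.65 in Adm+/- mice), and so did *Grhl1* (1.46 and 1.16). *Gata3* fell in Adm+/- mice (-1.43), and its log2 fold change in WT mice was -0.62 (edgeR adjusted p = 0.114). *Grhl3*, a factor of stratified epithelium singled out here after its values were seen, was called in opposite directions, at 2.17 in WT (edgeR adjusted p = 0.0441) and -2.48 in Adm+/- mice (edgeR adjusted p = 0.0382), from PBS means of 2.14 and 2.26 CPM. The difference of these responses was not called for *Grhl3* (edgeR adjusted p = 0.2) or any other of the 19 paralogs. Between genotypes with LPS, 0 of the paralogs were called higher and 3 lower in Adm+/- lungs (*Grhl3*, *Sox8* and *Sox10*), against 0.327% and 1.72% of tested genes. *Grhl3* was at 15.1, 1.33 and 12.03 CPM in WT LPS replicates 9, 10 and 11, so that its 2 high lungs were those with the squamous genes. *Sox8* and *Sox10*, factors of glia and the neural crest, were also called higher with LPS in WT mice (1.57 and 1.51), and LPS levels were 1.08 to 3.08 and 1.54 to 5.58 CPM in WT against 0.39 to 0.52 and 0.57 to 0.67 CPM in Adm+/- lungs. Of 7 tested Schwann and neural genes, 2 were called higher with LPS in WT mice and 0 were called between genotypes with LPS, where the list median was -2.11. The list summed to 37.6 to 119 CPM in WT PBS, 60.4 to 106 CPM in WT LPS and 39.3 to 43.4 CPM in Adm+/- LPS lungs, and the part of these tissues in the 3 calls was not tested.

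As a description of the patterns over the 12 lungs, the tested gene most like each factor was found by Pearson's r of log2 CPM, over points that share 4 groups and their libraries. *Sox2* was most like *Slc5a8* (r = 0.964) and *Pax9* (r = 0.956), the latter 1 of the squamous list. *Etv5* was most like *Jup* (r = 0.981), *Sox9* like *Asap2* (r = 0.952), *Elf5* like *Cldn8* (r = 0.925) and *Foxa2* like *Gipc2* (r = 0.947). *Adamts9* (r = 0.944) and *Meox1* (r = 0.937) came next for *Sox9*, whose highest r with another of the 10 factors was 0.196, with *Id2*. *Id2* had 967 genes above r = 0.9, with *Cdc73* first (r = 0.992), and *Gata6* and *Cebpa* had 457 and 456, with *Slc24a3* (r = 0.978) and *Ccdc155* (r = 0.978) first. *Foxa1* and *Grhl2* each had 1 such gene, *Cacna2d2* (r = 0.913) and *Ephx1* (r = 0.914). Among the 10 factors the closest pairs were *Gata6* with *Cebpa* (r = 0.833), *Etv5* with *Elf5* (r = 0.83) and *Etv5* with *Foxa2* (r = 0.804). WT PBS replicate 5 and Adm+/- PBS replicate 6, with the high *Gm26917* share, held the highest and second highest levels of *Gata6* and *Cebpa*. They also held the lowest and second lowest levels of *Id2*. The part of these libraries in the r values of the 3 genes was not tested.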

How the data were processed

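Total RNA of 12 whole lungs was depleted of ribosomal RNA and sequenced with a directional kit. The authors trimmed reads with Trim Galore, aligned them to mm10 with HISAT2 and counted them per Gencode gene with featureCounts (the Gencode release and the strand setting are not given in the sources used here). The deposited table holds raw counts of 52550 genes, and 0 of its per-sample columns were unmapped.

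Counts of protein-coding genes were filtered with filterByExpr, scaled by TMM and fitted with 1 coefficient per group over all 12 libraries by edgeR 4.0.16 in R 4.3.3 (quasi-likelihood F-test, 8 residual degrees of freedom). P-values were adjusted by Benjamini-Hochberg over the 15885 genes tested, and calls required both this value to be below 0.05 and a log2 fold change over 0.5 in size. CPM used TMM-scaled totals, log2 CPM a prior count of 2, and CPM per kb the union of Gencode M21 exons (mm10); 52403 table genes matched M21. Alternatives were RLE size factors, DESeq2 1.42.0, limma-voom (limma 3.58.1), no low-count filter, all annotated genes, only the 6 libraries compared, no fold threshold, and leaving out libraries.

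Named genes were all 10 factors, *Adm*, *Nkx2-1*, the nearest patterns, and up to 4 called genes of smallest p from each of 3 lists in each LPS comparison; any other gene was named after its values were seen. The factors, gene lists and markers were chosen with earlier results of these data known, so no pattern in them is independent support. Replicates are separate mice; p-values measure the spread between them.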

Additional observations from a re-analysis of the deposited data

How the results depend on the processing

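Calls of single factors with LPS rested on 3 mice a group, which limits what a missed threshold can show. In Adm+/- mice *Etv5*, *Elf5* and *Sox9* were called under all 7 alternatives other than the removal of 1 library, and *Foxa2* under 5 of them; *Sox2* was called there by DESeq2 and with only the 6 libraries compared. By DESeq2, 2 factors were called in WT mice (*Sox2* and *Gata6*) and 2 between genotypes in LPS (*Sox9* and *Etv5*), against 1 and 0. With no fold threshold edgeR called the same count of factors in each of the 5 comparisons. With only the 6 libraries compared, and without WT LPS replicates 9 and 11 (chosen after the data were seen), 0 were called in WT mice. Without WT PBS replicate 5 and Adm+/- PBS replicate 6, 1 was called between genotypes in LPS (*Sox9*). Leaving out each library in turn gave 0 to 3 calls in WT mice, 2 to 4 in Adm+/- mice, 0 to 0 for the difference and between genotypes in PBS, and 0 to 2 between genotypes in LPS. Over all tested genes, the count for the difference was 23 by edgeR, 168 by DESeq2 and 1 by limma-voom. Between genotypes in LPS it was 325 by edgeR, 803 by DESeq2, 548 without WT PBS replicate 5 and Adm+/- PBS replicate 6 and 107 without WT LPS replicates 9 and 11. In WT mice it was 2791 with all libraries, 1152 with only the 6 compared and 759 without WT LPS replicates 9 and 11. When single libraries were dropped, the lowest count for the difference was 5, in the fit lacking Adm+/- PBS replicate 7, and the highest was 65, in the fit lacking WT LPS replicate 10. Between genotypes in LPS it was 81, 86 and 89 without Adm+/- LPS replicates 1, 2 and 12, 165 without WT LPS replicate 11, 215 without Adm+/- PBS replicate 7, 550 without WT LPS replicate 10 and 573 without WT PBS replicate 5. In WT mice it was 1443 without WT LPS replicate 9. The cause of these shifts was not tested.

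Some log2 values that were not called changed sign. In WT mice *Sox9* was -0.022 by limma-voom, -0.031 with all annotated genes and -0.001 with only 6 libraries. In Adm+/- mice *Grhl2* was 0.007 with RLE and 0.005 by DESeq2. Without WT PBS replicate 5 and Adm+/- PBS replicate 6, *Gata6* was -0.03 for the difference and 0.16 between genotypes in PBS. Without WT LPS replicates 9 and 11, values in WT mice were -0.14 for *Sox9*, -0.18 for *Foxa1*, -0.16 for *Elf5* and -0.065 for *Grhl2*, values of the difference were 0.50 for *Sox2*, 0.018 for *Foxa1* and 0.06 for *Grhl2*, and values between genotypes in LPS were 0.071 for *Sox2* and 0.082 for *Foxa1*.

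Leaving out 1 library at a time, the ranges that crossed 0 were as follows. In WT mice they were -0.36 to 0.23 for *Sox9*, -0.069 to 0.21 for *Foxa1*, -0.43 to 0.006 for *Foxa2* and -0.023 to 0.15 for *Elf5*, and in Adm+/- mice -0.059 to 0.059 for *Grhl2*. Between genotypes in PBS they were -0.10 to 0.20 for *Sox9*, -0.094 to 0.19 for *Foxa1*, -0.042 to 0.15 for *Foxa2*, -0.013 to 0.68 for *Id2*, -0.25 to 0.27 for *Gata6* and -0.50 to 0.13 for *Cebpa*. Between genotypes in LPS the range was -0.018 to 0.19 for *Id2*. For the difference they were -0.54 to 0.075 for *Sox2*, -0.60 to 0.093 for *Id2*, -0.14 to 0.37 for *Gata6* and -0.41 to 0.21 for *Cebpa*. No paired analysis was made. The replicate numbers are serial library numbers, and the labels used here link no mouse of a group with a mouse of another.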
